A study of Bos taurus with 30 samples.

Results

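Messenger RNA was sequenced in the anterior pituitary of 30 Holstein-Friesian bull calves, and 7 genes whose products sit in excitable membranes or at synapses, or are little-described membrane proteins, are described here out of 27607 genes in the table. The 7 genes were selected from the 37 genes that the study lists as differentially expressed between diets in these same calves, so their diet differences were used to choose them and are given as a description. Calls of these differences are listed only to show how they move with the processing, and they support nothing. They are *KCNMB2* (ENSBTAG00000011377), *BEGAIN* (ENSBTAG00000017716), *CSMD2* (ENSBTAG00000005784), *NPTX1* (ENSBTAG00000008940), *CLEC2L* (ENSBTAG00000038854), *FAM163B* (ENSBTAG00000051577) and *SERTM1* (ENSBTAG00000051461). The group of 15 HI calves was offered 1.5 kg of milk replacer as 10 litres each day with concentrate ad libitum. The group of 15 MOD calves was offered 0.5 kg of milk replacer as 4 litres and 0.5 kg of concentrate each day. Both diets ran from 2 weeks of age, and all pituitaries were collected at 12 weeks. Apart from the numbers in the sample titles, taken up below, diet is the only labelled difference between the groups. Each calf gave 1 library of whole tissue, which holds several cell types, and fewer cells of a type cannot be told apart from less RNA per cell.

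Hormone-secreting cells of the anterior pituitary are electrically excitable. Their action potentials let calcium in through voltage-gated channels, calcium drives exocytosis of hormone granules, and calcium- and voltage-activated potassium (BK) channels shape the length of the firing. The same cells also make proteins better known from neuronal synapses. Among the 7 genes, *KCNMB2* encodes an auxiliary beta subunit of the BK channel. *BEGAIN* encodes a protein that binds the postsynaptic scaffold PSD-95, *NPTX1* encodes a secreted pentraxin that clusters AMPA-type glutamate receptors, and *CSMD2* encodes a large transmembrane protein with CUB and sushi repeats. *CLEC2L* encodes a C-type lectin-like membrane protein, *SERTM1* a small serine-rich single-pass membrane protein, and *FAM163B* a predicted membrane protein with little described function. The grouping rests on such known or predicted roles, and no measurement of membrane activity or of the cell of origin was made in these calves.

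Values are read counts scaled by the authors to an effective library size (normalised CPM). Library totals ranged from 14.7 M to 26.9 M (mega) reads with a median of 21.4 M. They are reads counted over the genes of the table and not the sequencing depth. HI replicate 3 stood apart from the rest. Its scaling factor was 0.510 against 0.894 to 1.15 in the other libraries, and 16940 genes had a read in it against 18317 to 18975 elsewhere. Results that rest on it are given with and without it. All 7 genes had a read in every library and passed the filter on low values (over 1 normalised CPM in at least 15 libraries). Gene lengths were not available, so levels are compared between calves and never between genes.

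*KCNMB2* and *SERTM1* had the lower levels in HI. *KCNMB2* ranged from 2.40 to 14.5 normalised CPM in HI with a median of 5.70, and from 7.28 to 26.7 in MOD with a median of 10.8. Thus 12 of the 15 HI calves lay below the lowest MOD calf. The exceptions were HI replicates 3, 2 and 9, at 14.5, 14.1 and 9.96, and through them the groups overlapped. The mean was 6.51 ± 3.65 for HI calves against 13.6 ± 5.82 for MOD calves (SD, n = 15 each), a level 2.09 times as high in MOD. Counts behind these values ranged from 50 to 516 reads per library.

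The small membrane protein gene *SERTM1* ranged from 20.7 to 83.2 normalised CPM in HI with a median of 36.9, and from 37.9 to 109.0 in MOD with a median of 55.4. Every MOD calf was above the HI median and 8 HI calves were below the lowest MOD calf. The highest calf of each group, replicate 15 in both, stood well above its neighbours, which were at 56.6 in HI and 76.8 in MOD. Means were 39.1 ± 16.4 for HI calves against 61.1 ± 17.0 for MOD calves (SD, n = 15 each), and MOD was 1.56 times HI. It rested on 346 to 2076 reads per library.

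**Figure D1:**
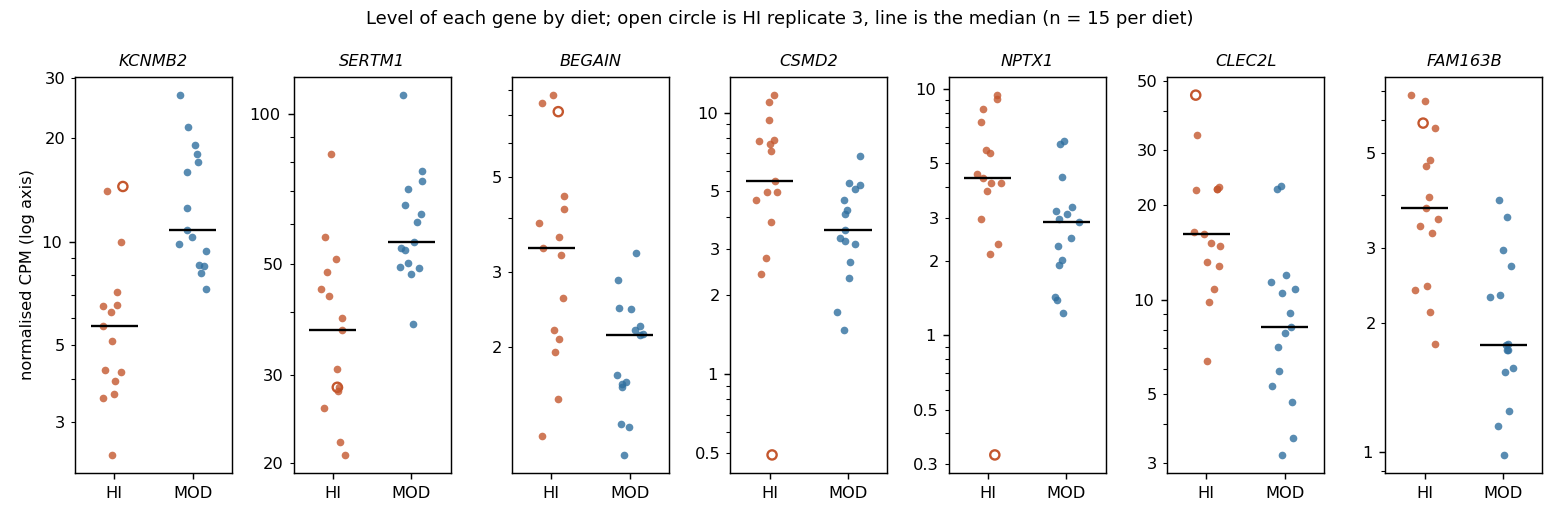
Level of each of the 7 genes in normalised CPM (log axis, separate for each gene) in the HI and MOD calves, 15 per diet. Each point is 1 calf, the line is the group median and the open circle is HI replicate 3. The groups overlap for every gene, and HI replicate 3 is the lowest calf for *CSMD2* and *NPTX1* and the highest HI calf for *KCNMB2* and *CLEC2L*.

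The other 5 genes had the higher levels in HI. *FAM163B* was the most evenly shifted, with 1.78 to 6.85 normalised CPM in HI (median 3.72) and 0.983 to 3.89 in MOD (median 1.78). All 15 HI calves lay above the MOD median, 7 of them lay above the highest MOD calf, and 8 MOD calves lay below the lowest HI calf. Its mean was 4.08 ± 1.64 for HI calves against 2.08 ± 0.866 for MOD calves (SD, n = 15 each), a ratio of 1.96. Its values are shallow, from 18 to 157 reads per library.

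The scaffold-binding gene *BEGAIN* ranged from 1.23 to 7.78 normalised CPM in HI (median 3.41) and from 1.12 to 3.31 in MOD (median 2.13). Here the lower ends of the groups coincided and the upper ends did not. HI replicates 4, 8 and 3, at 7.78, 7.46 and 7.12, were far above the next HI calf at 4.52, while 8 HI calves exceeded the highest MOD calf. Means were 3.79 ± 2.13 for HI calves against 2.01 ± 0.612 for MOD calves (SD, n = 15 each), so HI was 1.89 times MOD and its coefficient of variation was 56.2% against 30.4%. These are shallow values, from 23 to 157 reads per library.

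*CLEC2L* ranged from 6.36 to 45.1 normalised CPM in HI (median 16.2) and from 3.18 to 23.1 in MOD (median 8.16). In HI, 14 of 15 calves were above the MOD median, yet only HI replicates 3 and 13, at 45.1 and 33.6, exceeded the highest MOD calf. MOD replicates 12 and 6, at 23.1 and 22.5, lay apart from the remaining MOD calves, which reached 12.0. Means were 19.0 ± 9.91 for HI calves against 9.66 ± 6.01 for MOD calves (SD, n = 15 each), a ratio of 1.97. Without HI replicate 3 the HI mean was 17.1 ± 7.04 (SD, n = 14).

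*CSMD2* and *NPTX1* shared the position of their lowest calf. *CSMD2* ranged from 0.491 to 11.7 normalised CPM in HI (median 5.46) and from 1.47 to 6.84 in MOD (median 3.55), and *NPTX1* from 0.327 to 9.42 in HI (median 4.35) and from 1.23 to 6.15 in MOD (median 2.87). For each gene the lowest of all calves was HI replicate 3, with 6 reads for *CSMD2* and 4 for *NPTX1*, and the highest MOD calf was replicate 6. In the rest of the HI group the lowest values were 2.42 and 2.14. The groups overlapped broadly, with 12 HI calves above the MOD median for each gene, and 7 (*CSMD2*) and 4 (*NPTX1*) above the highest MOD calf.

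The mean of *CSMD2* was 6.13 ± 3.18 normalised CPM for HI calves against 3.80 ± 1.48 for MOD calves (SD, n = 15 each), 1.61 times as high in HI. For *NPTX1* it was 4.93 ± 2.64 for HI calves against 2.98 ± 1.51 for MOD calves (SD, n = 15 each), 1.65 times as high. Without HI replicate 3 the HI means were 6.53 ± 2.87 and 5.26 ± 2.40 (SD, n = 14).

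On the scale of log2(normalised CPM + 1), on which changes of lowly expressed genes appear smaller than they are, the difference of HI minus MOD was -0.99 ± 0.21 for *KCNMB2* and -0.69 ± 0.16 for *SERTM1* (SE, limma, 30 libraries). It was 0.94 ± 0.25 for *CLEC2L*, 0.70 ± 0.15 for *FAM163B*, 0.57 ± 0.17 for *BEGAIN*, 0.50 ± 0.23 for *NPTX1* and 0.46 ± 0.23 for *CSMD2*. The median size over the 7 genes was 0.685, with 5 higher and 2 lower in HI, against a median size of 0.0928 over the 14290 genes tested. Only 0.07% of the genes tested had a larger difference than *KCNMB2* and 1.02% a larger one than *CSMD2*. Because the genes were picked from a list made on this contrast, nothing is read from these ranks.

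The same holds for calls. In limma 0 of the 7 genes and 0% of the 14290 genes met the study's thresholds between diets (an adjusted p below 0.1 with more than 1.5-fold change), while 933 of all genes had an unadjusted p under 0.05. On recovered reads the quasi-likelihood test of edgeR called 0 of the 7 genes and 0 of all genes, and 1259 genes had an unadjusted p under 0.05 in it. By contrast, its likelihood-ratio test called 4 of the 7 genes (*KCNMB2*, *BEGAIN*, *FAM163B* and *SERTM1*) and 0.175% of all genes. Without HI replicate 3, limma called *KCNMB2*, *FAM163B* and *SERTM1* and 11 genes in all, and without HI replicate 2 it called *KCNMB2* and *FAM163B* and 8 genes in all. Leaving out HI replicate 4 gave a call of *FAM163B* alone among the 7, and leaving out HI replicate 15 one of *SERTM1*. In each of these 2 fits it was the only call among all genes.

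Sample titles carry a number whose middle digits fall into 4 series with no stated meaning, and the largest series, 78, held 16 libraries (8 HI and 8 MOD). Within these 16 libraries all 7 genes kept their direction. The differences of *CSMD2* and *NPTX1* were 0.24 ± 0.39 and 0.22 ± 0.38 (SE), within their errors, and they were 0.51 ± 0.31 and 0.49 ± 0.30 (SE) when HI replicate 3 was also left out. *CLEC2L* stood at 1.19 ± 0.31, *KCNMB2* at -0.93 ± 0.31, *SERTM1* at -0.82 ± 0.22, and *BEGAIN* and *FAM163B* at 0.66 ± 0.26 and 0.66 ± 0.23 (SE). Given diet, none of the 7 genes and 0% of all genes differed between title series (limma, adjusted p below 0.1). Unadjusted p-values of the 7 genes ran from 0.334 to 0.987, and 137 of all genes were under 0.05.

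**Figure D2:**
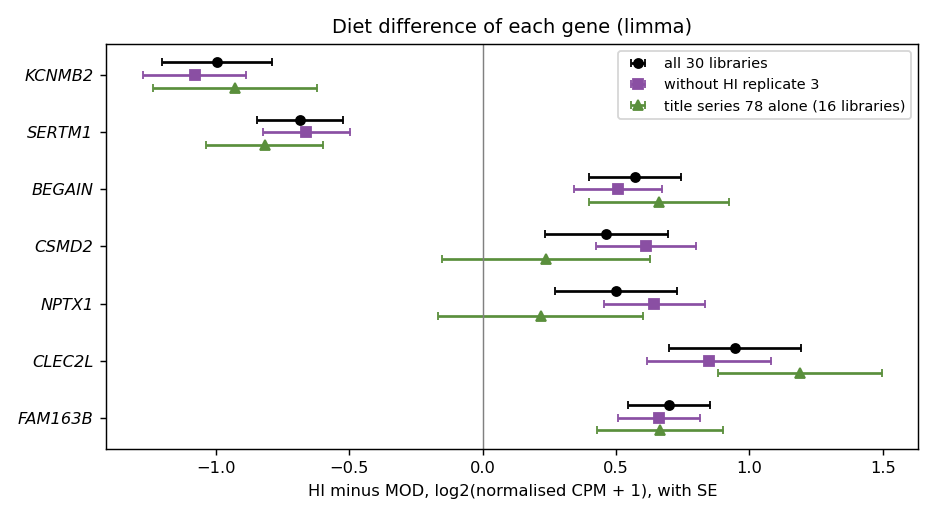
Difference of HI minus MOD in log2(normalised CPM + 1) for each of the 7 genes, with its standard error, in all 30 libraries (circles), without HI replicate 3 (squares) and in the 16 libraries of title series 78 (triangles). *KCNMB2* and *SERTM1* lie below 0 and the other genes above 0 in each set, and the error bars of *CSMD2* and *NPTX1* reach 0 in series 78.

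How far calves on the same diet differ from one another also entered the study's test behind its list, so it is described without a test. The biological coefficient of variation in edgeR, without HI replicate 3, was 47.1% for *CLEC2L* and 31.3% for *SERTM1*, where genes of similar abundance had a trend value of 23.3% and 16.9%. Without that library these 2 genes stood farthest above the trend, at 2.02 and 1.85 times it, and 2.24% and 3.27% of all genes had a higher ratio. *KCNMB2* was at 40.8%, which is 1.61 times its trend value. *FAM163B* was nearest to the trend, at 1.13 times, followed by *BEGAIN*. With all 30 libraries *CLEC2L* was at 50.8% against a trend value of 31.1%, and *SERTM1* at 32.2% against 25.9%. *NPTX1* (53% against 38.2%), *KCNMB2* (44.3% against 32.8%) and *CSMD2* (49.8% against 37%) then stood farther above the trend than *SERTM1*, whose place therefore depends on leaving out HI replicate 3.

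Whether the spread itself differed between diets was asked from the size of each calf's deviation from its group median on the log2 scale, without HI replicate 3. None of the 7 genes and 0% of all genes passed the test for a difference in spread (limma, adjusted p below 0.1), and 516 genes had an unadjusted p under 0.05. *BEGAIN* had the clearest difference of the 7, with a mean deviation of 0.458 in HI and 0.235 in MOD, but the difference of 0.22 ± 0.11 (SE) did not pass the test (limma, unadjusted p = 0.0367, adjusted p = 1.00). Deviations were larger in HI for 62.6% of all genes.

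Next it was asked whether the genes vary together between calves on the same diet. Levels were expressed as deviations from the diet mean, which removes the contrast used to choose the genes, in the 29 libraries other than HI replicate 3. Of the 21 pairs, 1 was called in both directions when each gene was tested in limma against another among all genes. This was *CSMD2* with *NPTX1*. The slope of *NPTX1* on *CSMD2* was 0.58 ± 0.16 (SE, limma, adjusted p = 0.00502) and that of *CSMD2* on *NPTX1* was 0.56 ± 0.15 (SE, limma, adjusted p = 0.0334). The background differed between the 2 genes, since 36.3% of all genes covaried with *CSMD2* and 8.63% with *NPTX1* at an adjusted p under 0.05.

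Pearson's r between *CSMD2* and *NPTX1* was 0.573 (permutation test, p = 0.00157) and Spearman's rho was 0.570 (permutation test, p = 0.00186). It was 0.550 without the 2 calves farthest from the median of *CSMD2*. Within HI it was 0.457 and within MOD 0.720, and with HI replicate 3 included it was 0.731 (permutation test, p = 5e-05). The pair therefore does not rest on the library that stood apart. Nor is the pair unusual for *CSMD2*, because 17.9% of the genes tested had a larger correlation with it in absolute size, against 3.28% for *NPTX1*. The call of *CSMD2* on *NPTX1* was lost without HI replicate 2, 5 or 11 or without MOD replicate 1, 6 or 8, one at a time.

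The other 20 pairs had r from -0.356 to 0.324, and none had a permutation p under 0.05 for r or rho. Over all 21 pairs 7 were positive and 14 negative, with a median of -0.0732. By r, *KCNMB2* was negative with each of the other 6 genes, from -0.0514 with *BEGAIN* to -0.356 with *CLEC2L*. The sign did not hold throughout. With *BEGAIN*, rho was 0.0379, and r was 0.0962 without the 2 calves farthest from the median of *KCNMB2*. That r was 0.0968 when HI replicate 3 was included. Within MOD alone, *KCNMB2* had r = 0.293 with *BEGAIN* and 0.107 with *FAM163B*. Among the 5 genes that were higher in HI, 6 of 10 pairs were positive with a median r of 0.0722, where the diet direction they share was fixed by the choice of genes. With all 30 libraries, *KCNMB2* with *CSMD2* (r = -0.485, permutation p = 0.00934) and *KCNMB2* with *NPTX1* (r = -0.473, permutation p = 0.0108) also had a p under 0.05, against r of -0.334 (permutation p = 0.0829) and -0.323 (permutation p = 0.0944) without HI replicate 3.

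**Figure D3:**
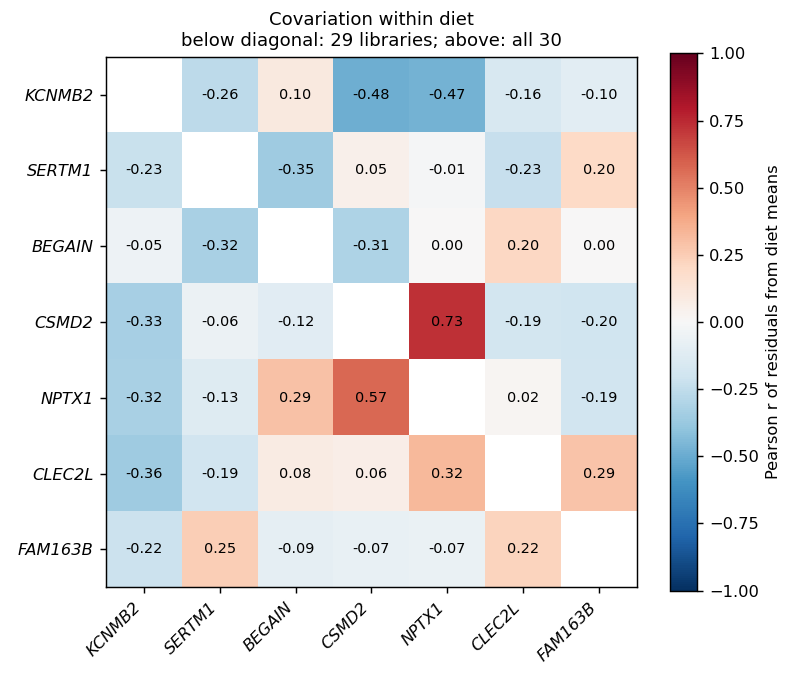
Pearson's r between the 7 genes over deviations from the diet mean, in 29 libraries without HI replicate 3 below the diagonal and in all 30 libraries above it. Below the diagonal *CSMD2* with *NPTX1* has r = 0.573, the other pairs lie between -0.356 and 0.324, and *KCNMB2* is negative with every other gene, whereas above it *KCNMB2* with *CSMD2* reaches -0.485.

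Signs of the pairs in HI and in MOD were the same in 10 of 21. Within MOD, *KCNMB2* was negatively related to *CSMD2* (r = -0.681), against -0.0440 in HI, and *CLEC2L* was negatively related to *SERTM1* (r = -0.644), against 0.194 in HI. A test of the difference in slope between diets gave unadjusted p-values of 0.0411 and 0.00445 in limma, the lowest found over the 42 tests of the 7 genes against each other, and adjusted p-values of 0.997 and 0.427. With the genes of each pair exchanged in the fit, the unadjusted p-values were 0.110 and 0.0557 (limma). No slope was therefore shown to differ between diets.

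The genes differed widely in how much of the transcriptome moved with them. With *CSMD2*, 5180 of 14289 other genes covaried within diet, 2803 positively and 2377 negatively, and with *NPTX1*, 1233 genes, of which 747 were positive and 486 negative. *CLEC2L* covaried with 50 genes (0.35%), 49 of them positively, and *SERTM1* with 36 (0.252%), 34 of them positively. The *CLEC2L* count was 0 without HI replicate 9, with title series as a covariate, in series 78 alone or with scaling to library totals, and it was 1 without MOD replicate 4 or 12 and 4 without MOD replicate 15. The *SERTM1* count was 973 (6.81%) with library totals, 4 in series 78 alone, 19 without MOD replicate 15 and 78 without HI replicate 12. *KCNMB2* covaried with 1 gene (0.007%). *BEGAIN* and *FAM163B* covaried with none (0% each), although 722 and 263 genes had an unadjusted p under 0.05 with them in limma.

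**Figure D4:**
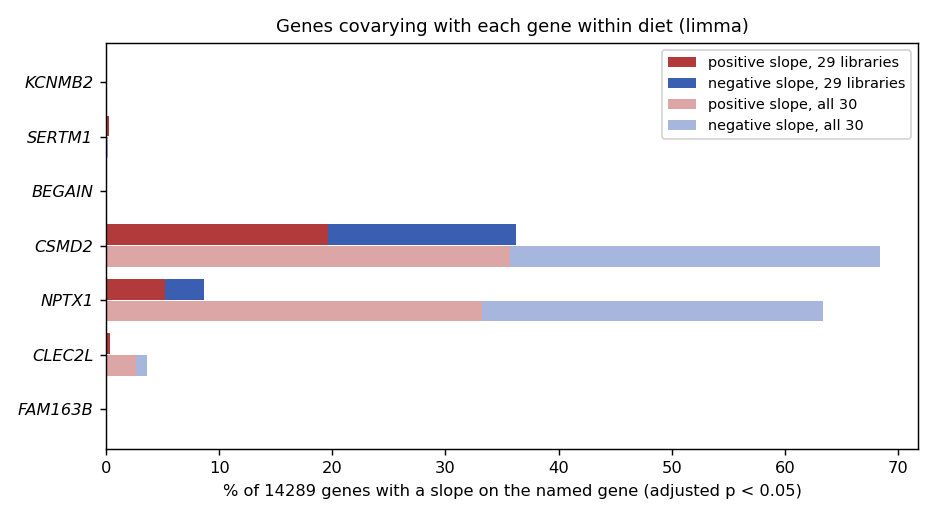
Share of 14289 genes, in percent, whose level covaried with each of the 7 genes within diet in limma (adjusted p under 0.05), split by the sign of the slope. Dark bars use 29 libraries and light bars add HI replicate 3. *CSMD2* reaches 36.3% and *NPTX1* 8.63% without that library, and 68.5% and 63.3% with it.

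These shares moved with single libraries. With HI replicate 3 included, 68.5% of genes covaried with *CSMD2*, 63.3% with *NPTX1* and 3.60% with *CLEC2L*. When 1 further library was left out beside HI replicate 3, the share ran from 21.5% (without HI replicate 8) to 39.7% (without HI replicate 10) for *CSMD2*. For *NPTX1* it ran from 0.028% (4 genes, without MOD replicate 6) and 0.294% (without HI replicate 5) to 18.3% (without HI replicate 15) and 18.7% (without MOD replicate 4). The first principal component of the deviations, which held 32.9% of their variance over all genes tested, was correlated with *CSMD2* at r = 0.704 (permutation test, p = 4e-05; rho = 0.667, permutation p = 0.00016; r = 0.638 without the 2 farthest calves). It was correlated with *NPTX1* at r = 0.520 (permutation test, p = 0.00501; rho = 0.530, permutation p = 0.00416; r = 0.668 without the 2 farthest calves). For the other 5 genes r lay between -0.204 and -0.0218. The sign of the component is arbitrary and was set so that *CSMD2* was positive. Given this component, the correlation of *CSMD2* with *NPTX1* was 0.341. What the component measures was not tested.

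Single genes of the study's list were then related to the 7 genes within diet. Of 29 other genes of that list that passed the filter, the strongest relation was that of *SERTM1* with *WFDC1*, which encodes a secreted protein with a WAP four-disulfide core. Their r was 0.737 (permutation test, p = 3e-05) and rho was 0.704 (permutation test, p = 2e-05), with 0.742 in HI, 0.726 in MOD and 0.624 without the 2 calves farthest from the median of *SERTM1*. The slope of *WFDC1* on *SERTM1* was 1.11 ± 0.19 (SE, limma, adjusted p = 0.00402). With all 30 libraries r was 0.736 (limma, adjusted p = 0.00523).

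Between diets the same 2 genes went opposite ways. *WFDC1* was at 10.3 ± 7.43 normalised CPM for HI calves against 5.48 ± 2.46 for MOD calves (SD, n = 15 each), whereas *SERTM1* was lower in HI. Replicate 15 was the highest calf for both genes in both groups. Both genes were also negatively related to the share of reads taken by the 2 most abundant genes of the table, with r = -0.576 for *SERTM1* (permutation test, p = 0.0013; rho = -0.602, permutation p = 0.00054; r = -0.540 without the 2 farthest calves) and r = -0.595 for *WFDC1* (permutation test, p = 0.00073; rho = -0.598, permutation p = 0.00084; r = -0.533 without the 2 farthest). Given that share, their correlation was 0.599, and given the scaling factor it was 0.670. The *CLEC2L* level rose with the same share (r = 0.482, permutation p = 0.0094; rho = 0.437, permutation p = 0.0209; r = 0.474 without the 2 farthest). For *NPTX1* r was 0.384 (permutation p = 0.0434; rho = 0.304, permutation p = 0.114) and it was 0.191 without the 2 farthest, so that relation rests on those calves. Of 8 relations with that share, unadjusted for their number, the other 4 had r from -0.122 to 0.0935. How many of all genes were related to it was not tested. With the log2 scaling factor, by which these values were scaled, r was 0.468 for *SERTM1*, 0.433 for *WFDC1* and -0.502 for *CLEC2L* (permutation tests, p = 0.00917, 0.0177 and 0.00728). The remaining genes had r from -0.217 to 0.0913 with it. Without the 2 farthest calves, *CSMD2* had r = 0.391 in place of 0.0913, and *NPTX1* had 0.00475 in place of -0.217. The part of either measure in the diet differences was not tested.

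**Figure D5:**
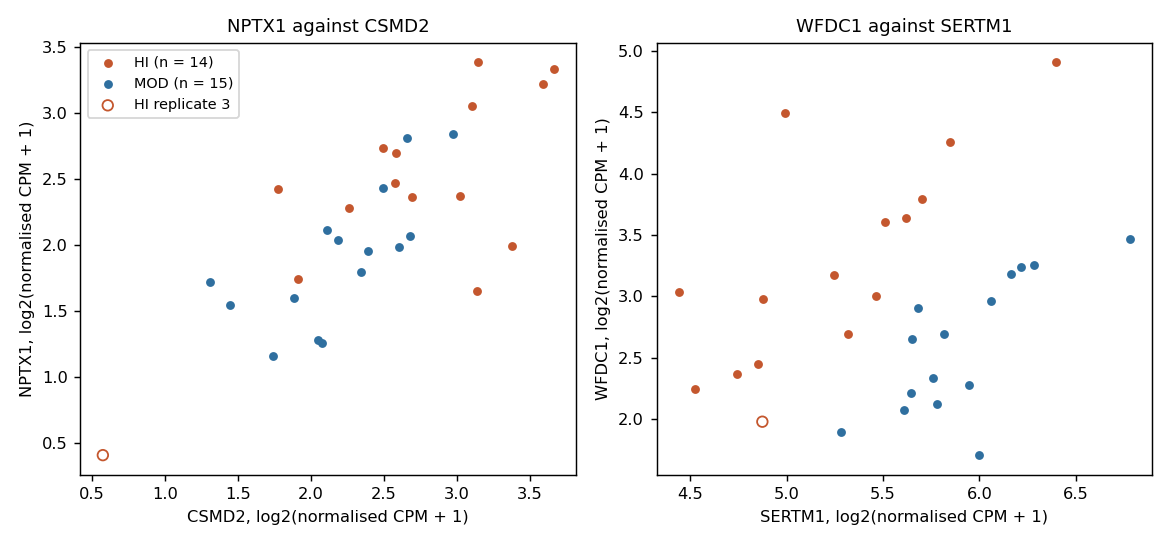
Levels, as log2(normalised CPM + 1), of *NPTX1* against *CSMD2* and of *WFDC1* against *SERTM1*, with each point a calf, HI in orange (n = 14) and MOD in blue (n = 15), and HI replicate 3 as an open circle. Both pairs rise together within each diet. In the second pair the diets overlap on both axes, with a higher median of *WFDC1* and a lower median of *SERTM1* in HI.

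With *CSMD2*, 4 of the 29 other genes of the study's list covaried, where 36.3% of all genes did. The highest r was with *PCSK1*, a prohormone convertase gene (r = 0.436, limma adjusted p = 0.0386), and the lowest with *CCDC80*, a gene of a secreted matrix-associated protein (r = -0.514, limma adjusted p = 0.0141). The homeobox gene *NKX2-2* (r = -0.436) and ENSBTAG00000048515 (r = -0.483) were also negative, and both were chosen after their values were seen. With HI replicate 3 included the adjusted p was 0.000805 for *PCSK1* and 0.649 for *CCDC80*, and the latter relation was not called with that library. Over 41 alternatives the call was lost in 12 for *PCSK1* (adjusted p = 0.148 without HI replicate 8, 0.120 in limma-voom and 0.118 in series 78 alone), in 11 for *NKX2-2*, in 6 for *CCDC80* and in 5 for ENSBTAG00000048515. With *NPTX1*, 1 of the 29 covaried, where 8.63% of all genes did. It was *RGS4*, the gene of a regulator of G protein signalling (r = -0.509, limma adjusted p = 0.0479). Its limma adjusted p with all 30 libraries was 0.653.

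Outside the study's list, the gene that covaried with *KCNMB2* was ENSBTAG00000013534, chosen after its values were seen (r = 0.760, slope 0.54 ± 0.09, SE, limma, adjusted p = 0.0258). It was at 4.95 ± 1.88 normalised CPM for HI calves against 5.45 ± 1.81 for MOD calves (SD, n = 15 each). The adjusted p was 0.0063 with HI replicate 3 and 0.384 without HI replicate 2. Leaving out any 1 of 9 calves (HI replicate 2, 6, 9 or 10, or MOD replicate 7, 9, 11, 13 or 14) ended the call.

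Among genes outside the study's list, none rose with more than 2 of the 7 genes and none fell with more than 2. The 2 signs were counted apart, so a gene that rose with some and fell with others was not counted over both. In all, 650 genes rose and 344 fell with 2 of the 7. Of these tied genes, 1 in each direction was named, namely that with the largest sum of absolute r over the 7 genes. They were ENSBTAG00000006898, with r = 0.582 to *CSMD2* and 0.659 to *NPTX1*, and ENSBTAG00000001135, with -0.536 and -0.596. Their levels were 227.8 ± 25.1 normalised CPM in HI and 218.4 ± 21.8 in MOD for the first, and 3.30 ± 0.654 and 3.30 ± 0.470 for the second (SD). These are over 14 HI calves, without HI replicate 3, and 15 MOD calves. Other genes of the BK channel, of the synapse or of pituitary cell types were not analysed here, because symbols were available only for genes of the study's list.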

How the data were processed

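Anterior pituitary libraries (15 HI, 15 MOD) were prepared by the authors with a stranded poly(A) kit, trimmed with Cutadapt, aligned with STAR to ARS-UCD1.2 and normalised in edgeR. The deposited values are a normalised signal, namely gene read counts scaled to effective library size. Of 556895 nonzero values, 100% were within 0.01 of a whole read, and 5141 of 27607 genes had no read. The log2(value + 1) of each gene was tested in limma 3.58.1 (R 4.3.3, eBayes with trend), with Benjamini-Hochberg adjustment over all genes tested. The design had assumed raw counts, so recovered reads were tested as alternatives with edgeR 4.0.16 and DESeq2 1.42.0.

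Covariation within diet was fitted in limma with diet and the level of each gene as terms. Pearson and Spearman correlations used 100000 two-sided permutations within diet (Python 3.11.15, NumPy 2.4.6). Correlations over 29 libraries left out HI replicate 3. No fit dropped another library unless stated. The procedures were tested on simulated data.

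The 7 genes and the lists were chosen with earlier results of these data known. Named genes were the 7, for each the gene of the study's list with the highest and the lowest r if called, and by identifier the gene in each direction that covaried with most of the 7. Ties in that count were settled by the largest sum of absolute r over the 7 genes. The RefSeq table (ARS-UCD2.0) matched 0 Ensembl identifiers, so symbols come from the study, and planned gene lists, cell type markers, sequences and coordinates were not analysed here. No pair of libraries within a diet differed by as little as sampling noise (lowest chi-square per degree of freedom 13.8). The authors blocked calves on age, bodyweight, sire and farm, but labels give no block, so p-values measure the spread between calves without it. Fits for HI or MOD alone, slope differences, added covariates, series 78 without HI replicate 3 and count tests without HI replicate 3 were chosen after seeing the data.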

Additional observations from a re-analysis of the deposited data

How the results depend on the processing

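The direction of the diet difference was kept by all 7 genes in each of 43 alternatives. The number of the 7 called between diets was 0 in limma and in the edgeR quasi-likelihood test, each with 0 of 14290 genes in all. It was 1 (2 in all) with scaling to library totals, 4 (25 in all) in the edgeR likelihood-ratio test and 5 (26 in all) in DESeq2. With 1 library left out it was 0 to 3 (0 to 11 in all). On recovered reads without HI replicate 3 it was 2 (14 in all) in the quasi-likelihood test and 6 (37 in all) in the likelihood-ratio test. The cause was not tested, and the genes were chosen on this contrast. The count of pairs called both ways (1) was 0 with no filter, in HI alone and in MOD alone, where fewer calves were fitted, and 0 to 1 with 1 library left out. The count of pairs with a permutation p under 0.05 (1) was 3 with all 30 libraries, 3 in MOD alone, 2 with library totals, 2 with title series as a covariate and 1 to 3 with 1 library left out. The r of *CSMD2* with *NPTX1* ran from 0.457 (HI alone, permutation p = 0.104) to 0.731. The relation of *WFDC1* to *SERTM1* lost its call in series 78 alone (adjusted p = 0.192), in HI alone and in MOD alone, and that of *RGS4* to *NPTX1* lost it in 24 of 41 alternatives. No alternative changed the call for spread (4) or title series (2). No paired analysis was possible because replicates were numbered in accession order and no label links an HI calf to a MOD calf. Counts as low as 4 reads (*NPTX1*) and 6 reads (*CSMD2*) limit the values of HI replicate 3.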
